A study of Mus musculus with 15 samples.

Results

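The genes described here are the ligands and receptors of the VEGF and angiopoietin systems, the main paracrine signals that build and keep blood and lymphatic vessels. They were chosen by symbol: Vegfa, Vegfb and Vegfc, the receptors Kdr, Flt1 and Flt4, the ligands Angpt1 and Angpt2, and the receptors Tek and Tie1. All 10 symbols were found among the 24054 genes of the count table, and all 10 had enough reads to be tested. RNA was measured by sequencing in whole lungs of 15 female wild-type Balb mice in 3 groups of 5, in a model of allergic asthma driven by ovalbumin (OVA). The saline group was sham-sensitised and received an isotype control antibody, which the OVA group also received. The OVA group was sensitised by intraperitoneal OVA and then challenged with nebulised OVA. The anti-IL-4Ra group had the same OVA treatment and received, in place of the isotype control, 30 mg/kg of a monoclonal antibody to mouse IL-4Ra. This protein is the receptor subunit that IL-4 and IL-13 share. The sources used here give no age, dosing times or time of collection.

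VEGF-A binds Kdr (VEGF receptor 2), the receptor through which most of its signal to endothelial cells runs, and Flt1 (VEGF receptor 1), which binds it tightly and also exists as a soluble decoy. VEGF-B binds Flt1, and VEGF-C binds Flt4 (VEGF receptor 3), best known from lymphatic endothelium. Angiopoietin 1, made by cells around the vessel, activates the receptor Tek (also called Tie2) and steadies the vessel wall. Angiopoietin 2, released by endothelial cells, often acts against it, and Tie1 is a related receptor that modulates Tek. In the lung, alveolar type 1 cells are a known source of Vegfa, and the capillary bed next to them carries Kdr and Tek. A whole-lung sample cannot tell fewer cells of a type from less RNA per cell.

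The 5 saline libraries held 16774285 to 27570666 expected counts, the OVA libraries 10042825 to 14706131 and the anti-IL-4Ra libraries 12317805 to 16914475. The scarcest of the genes, Vegfc, still had 60 to 251 counts per library, and Kdr had 2554 to 24823. Endothelial transcripts were present throughout: none of 12 endothelial markers was at 0 in any library. The 15 libraries also differed in how much of their reads fell on the ribosomal RNA precursor Rn45s, a share that was 1.75 ± 0.682% (SD, n = 5) with saline, 7.14 ± 3.36% with OVA and 7.34 ± 4.69% with anti-IL-4Ra. Within the anti-IL-4Ra group it was 9.80, 3.10, 9.79, 12.4 and 1.65% in replicates 1 to 5. Heart muscle transcripts varied as well, the summed level of 10 cardiac markers spanning 774 to 2295 CPM (counts scaled to the library total) in saline libraries, 214 to 2031 CPM in OVA libraries and 130 to 606 CPM in the anti-IL-4Ra group. These values are set beside the results they touch.

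The receptors that fell most after OVA were Kdr, Tek and Flt1, and the 250 bases before the start of each are shown here because these genes moved together. The sequences are RefSeq's for the mouse build GRCm38.p6 and are written 5′ to 3′ on the gene's own strand, ending at the base before the start site. Capitals mark the SP motif GGGCGG or its reverse complement.

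Kdr, chr5:75978456-75978705, minus strand: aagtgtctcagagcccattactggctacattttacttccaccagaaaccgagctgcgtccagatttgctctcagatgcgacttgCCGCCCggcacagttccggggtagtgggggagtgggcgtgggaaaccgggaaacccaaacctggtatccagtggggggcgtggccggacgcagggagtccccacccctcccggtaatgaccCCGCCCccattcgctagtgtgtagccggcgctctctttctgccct
Flt1, chr5:147726012-147726261, minus strand: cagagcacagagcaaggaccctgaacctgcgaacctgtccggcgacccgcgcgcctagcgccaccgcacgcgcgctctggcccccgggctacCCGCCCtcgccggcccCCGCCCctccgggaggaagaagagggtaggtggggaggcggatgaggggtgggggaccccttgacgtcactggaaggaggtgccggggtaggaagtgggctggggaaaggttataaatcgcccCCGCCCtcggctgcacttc
Tek, chr4:94739039-94739288, plus strand: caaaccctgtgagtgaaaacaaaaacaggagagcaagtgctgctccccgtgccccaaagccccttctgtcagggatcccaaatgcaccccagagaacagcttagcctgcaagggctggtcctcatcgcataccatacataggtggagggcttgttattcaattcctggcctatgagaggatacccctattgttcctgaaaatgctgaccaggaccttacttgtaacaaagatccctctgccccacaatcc

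Kdr held 2 SP matches and Flt1 held 3, whereas no match lay in the Tek window. Guanine and cytosine made up 61.6% of the Kdr bases, 70.4% of Flt1 and 51.2% of Tek. Of the 10 genes, 8 had an entry in the promoter table, with 9 promoters because Vegfa has 2. The SP motif and 5 others were searched on both strands of the full windows, which run from 250 bases before to 50 bases after the start. The SP motif lay in 7 of the 9 windows and in 35.7% of all 32851 promoters of that table. The GATA motif AGATAA lay in 2 of 9, those of Tek and the first Vegfa promoter, against 11.2% of all. The core of the HIF motif, ACGTG, lay in 1 of 9, the second Vegfa promoter, against 19.6%. An ETS motif (CCGGAAG), a forkhead motif (GTAAACA) and the palindromic STAT6 motif lay in 0 of 9, against 8.86%, 3.65% and 6.95% of all promoters. These matches describe the letters of the windows and were not tested.

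Levels were compared between genes per kilobase of exon. In saline lungs Vegfa stood highest, at 180 ± 17.8 CPM per kilobase (SD, n = 5). Tek followed at 108 ± 11.5 and Kdr at 99.1 ± 9.61, and these did not differ beyond their spread. Tie1 stood at 47.9 ± 4.85, Flt1 at 24.8 ± 3.07 and Angpt1 at 18.5 ± 1.70 CPM per kilobase. Flt4 at 12.5 ± 1.45 and Vegfb at 12.3 ± 3.71 could not be told apart, and Angpt2 at 7.10 ± 0.917 and Vegfc at 3.75 ± 0.449 were the lowest. The 5 highest genes kept their order in the other groups. In OVA lungs they stood at 97.4 ± 25.9, 40.9 ± 11.5, 35.2 ± 9.06, 30.1 ± 7.99 and 9.89 ± 2.90 CPM per kilobase for Vegfa, Tek, Kdr, Tie1 and Flt1. With anti-IL-4Ra the same 5 stood at 103 ± 26.3, 44.7 ± 20.5, 41.8 ± 15.7, 29.1 ± 5.90 and 11.3 ± 5.50. In both OVA-treated groups Tek, Kdr and Tie1 lay within each other's spread, as did Vegfb, Angpt1 and Flt4.

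**Figure D1:**
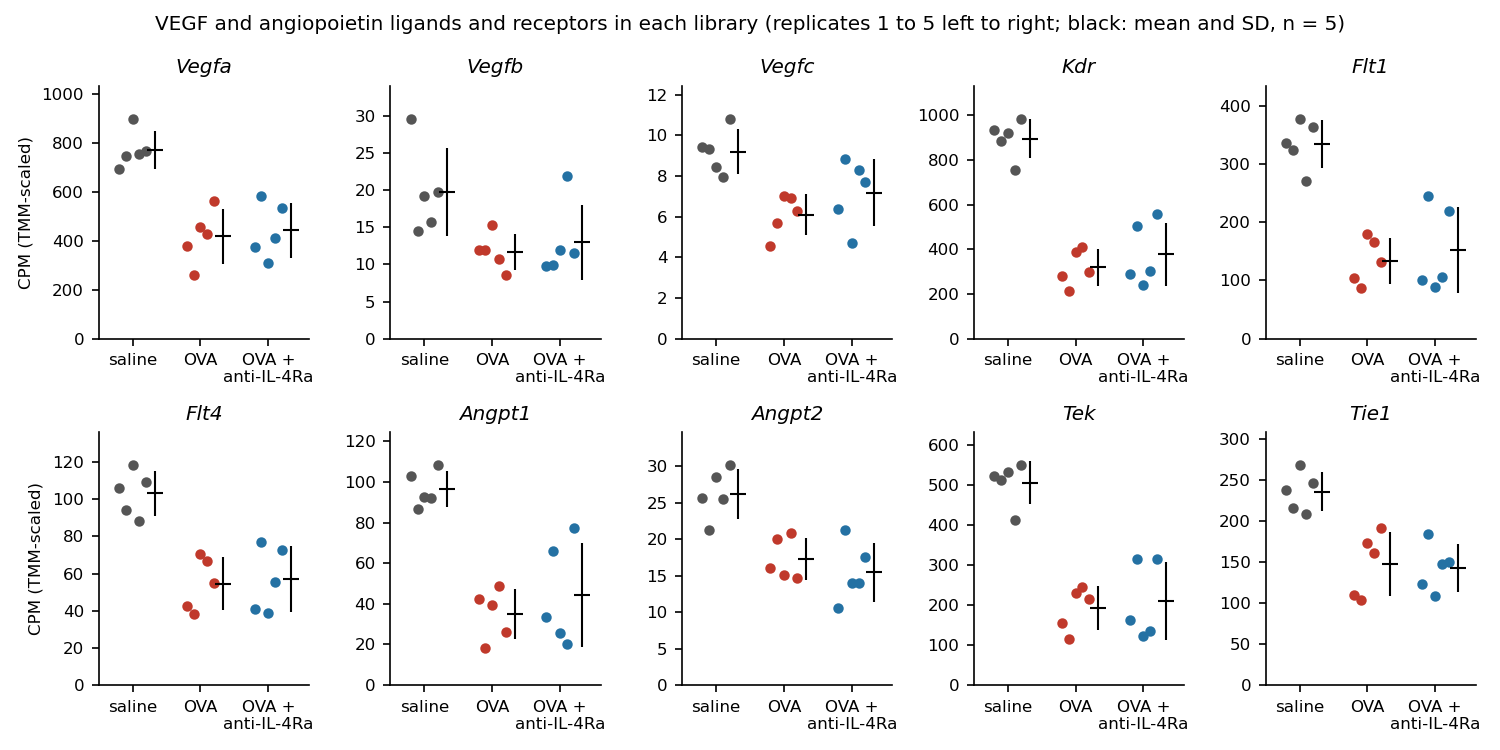
Level of each gene in CPM (vertical axis, linear, from 0) in the 15 libraries, by group, with replicates 1 to 5 from left to right and the group mean and SD in black. Every saline point lies above every OVA point except for Vegfb, and the anti-IL-4Ra points overlap the OVA points in all 10 panels.

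The first comparison set OVA against saline, that is, allergen with isotype control against sham sensitisation with the same antibody. All 10 genes fell in OVA lungs, by 0.59 to 1.49 on the log2 scale (adjusted p under 0.05 in edgeR's quasi-likelihood test, Benjamini-Hochberg over all 15905 genes tested), while 17.8% of all genes tested were called lower. The median log2 change of the 10 genes was -0.90, beside 0.02 over all genes tested. For 9 of the 10 the highest OVA library lay below the lowest saline library, which held for 14.5% of all genes. The largest falls were those of Kdr, Angpt1, Tek and Flt1, and the smallest were those of Angpt2, Vegfc and Tie1. The text below takes the ligands and receptors in turn, with CPM scaled by TMM factors and every adjusted p from that edgeR test.

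Vegfa, the principal VEGF of the lung, measured 692, 747, 898, 755 and 767 CPM in the saline libraries. It measured 380, 260, 457, 426 and 564 CPM in the OVA libraries, so that no OVA animal reached the lowest saline value. The log2 change was -0.89 ± 0.20 (SE; adjusted p = 0.0030, edgeR), a 1.85-fold lower level. Vegfb, a ligand of Flt1 tied to lipid handling in muscle, ran from 14.6 to 29.7 CPM with saline and from 8.61 to 15.4 CPM with OVA. It was the 1 gene of the 10 whose groups overlapped, with a log2 change of -0.75 ± 0.24 (adjusted p = 0.025, edgeR). Its call was lost without saline replicate 1, which had both the highest Vegfb and the highest cardiac marker sum (log2 -0.56, adjusted p = 0.080, edgeR), and without OVA replicate 5 (-0.66, adjusted p = 0.060, edgeR). With the cardiac score as a term Vegfb changed by -0.59 in OVA against saline (adjusted p = 0.022, edgeR), and by -0.02 in anti-IL-4Ra against saline. All 10 genes were called lower in OVA against saline with that term, beside 16.7% of all genes. The part of heart muscle in the Vegfb values was not tested. Vegfc, the ligand of Flt4, ran from 7.95 to 10.8 CPM with saline and from 4.55 to 7.02 CPM with OVA (log2 -0.59 ± 0.18, adjusted p = 0.018, edgeR). Without OVA replicate 1 its adjusted p was 0.0503.

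Kdr measured 934, 883, 919, 754 and 984 CPM with saline and 280, 211, 389, 410 and 300 CPM with OVA. The groups lay far apart, the highest OVA library reaching 410 CPM. Kdr had the largest change of the 10 genes, -1.49 ± 0.23 on the log2 scale (adjusted p = 0.00029, edgeR), a 2.81-fold lower level. Flt1, the receptor for both VEGF-A and VEGF-B, measured 337, 325, 378, 271 and 364 CPM with saline and 104, 87.1, 179, 165 and 132 CPM with OVA. Its log2 change was -1.33 ± 0.28 (adjusted p = 0.0022, edgeR). Flt4 ran from 88.3 to 118 CPM with saline and from 38 to 70.4 CPM with OVA, without overlap, and changed less (log2 -0.92 ± 0.21, adjusted p = 0.0033, edgeR). The VEGF receptors therefore all fell, Flt4 by the smallest amount, although a difference between receptors was tested only for Flt1 against Kdr, below.

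Angpt1, the agonist of Tek, measured 103, 86.5, 92.5, 92.3 and 108 CPM with saline and 42.1, 18.4, 39.2, 48.6 and 26.0 CPM with OVA. OVA replicate 2 was the lowest, and the highest OVA value was far under the lowest saline value. The log2 change was -1.47 ± 0.33 (adjusted p = 0.0033, edgeR), a 2.76-fold lower level. Angpt2, the context-dependent antagonist, measured 25.6, 21.2, 28.5, 25.5 and 30.1 CPM with saline and 16.1, 20.0, 15.1, 20.8 and 14.7 CPM with OVA. These groups nearly touched, at 20.8 and 21.2 CPM, and the log2 change was -0.59 ± 0.17 (adjusted p = 0.014, edgeR). Tek measured 524, 513, 534, 413 and 550 CPM with saline and 156, 116, 229, 246 and 216 CPM with OVA. Saline replicate 4 stood below the other saline libraries but above every OVA library, and the log2 change was -1.40 ± 0.27 (adjusted p = 0.0013, edgeR). Tie1 measured 238, 217, 268, 209 and 247 CPM with saline and 109, 104, 174, 161 and 192 CPM with OVA. Its groups came closer than those of Tek, with a log2 change of -0.67 ± 0.18 (adjusted p = 0.0082, edgeR).

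**Figure D2:**
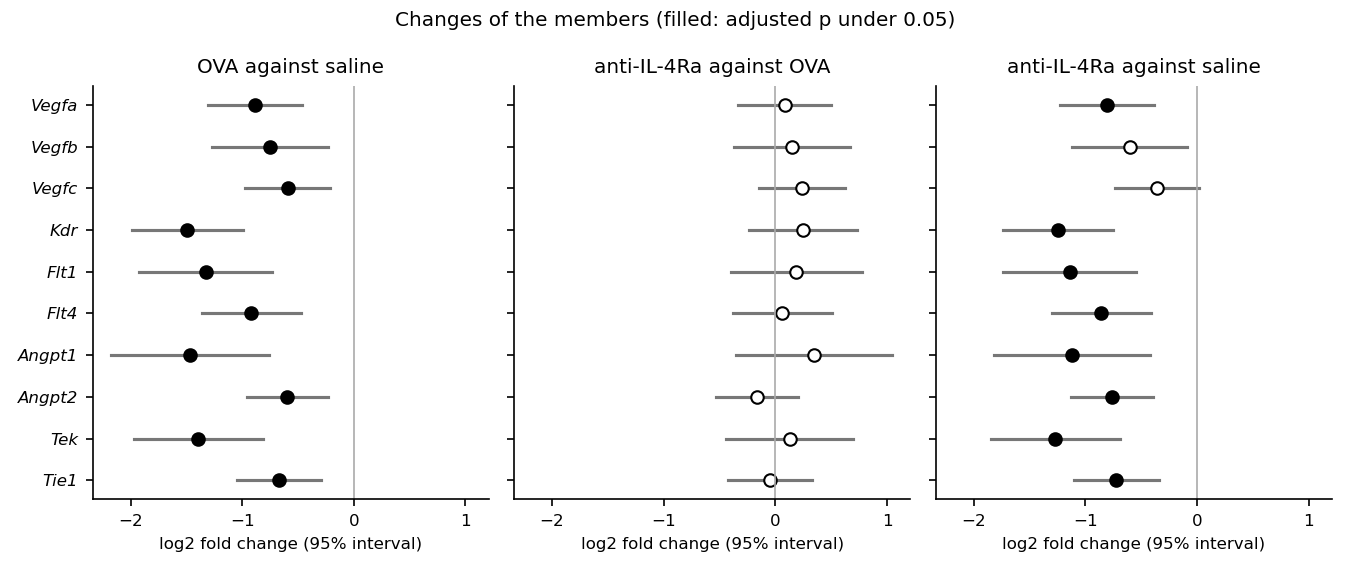
Log2 fold change of each gene (horizontal axis) with its 95% interval in the 3 comparisons, from the edgeR fit over all genes. Filled points have an adjusted p under 0.05: all 10 in OVA against saline, 0 in anti-IL-4Ra against OVA and 8 in anti-IL-4Ra against saline.

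The Rn45s share moved with these falls. With that share as a term in the fit, 1 of the 10 genes was called, Kdr at -0.84 ± 0.22 on the log2 scale (adjusted p = 0.045, edgeR), and the median log2 change of the 10 was -0.53, with values from -1.08 for Vegfb to -0.25 for Angpt2. Over all genes this fit called 752 in place of 5898, and 1.67% of all genes were called lower. The shares of the saline and OVA libraries did not overlap, so the term and these groups cannot be told apart. A second setting, chosen after seeing the data, left out the 5 libraries with an Rn45s share over 8%, which kept OVA replicates 1, 3 and 4. The 9 genes other than Vegfb were called lower there, with Kdr at -1.33, Tek at -1.28 and Angpt1 at -1.18 on the log2 scale, beside 15.7% of all genes. Vegfb had an adjusted p of 0.055 in that setting (edgeR). The OVA libraries kept, at Rn45s shares of 4.31 to 5.50%, still lay above the saline libraries, at 1.19 to 2.88%. The share and these groups therefore cannot be told apart in that setting either.

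**Figure D3:**
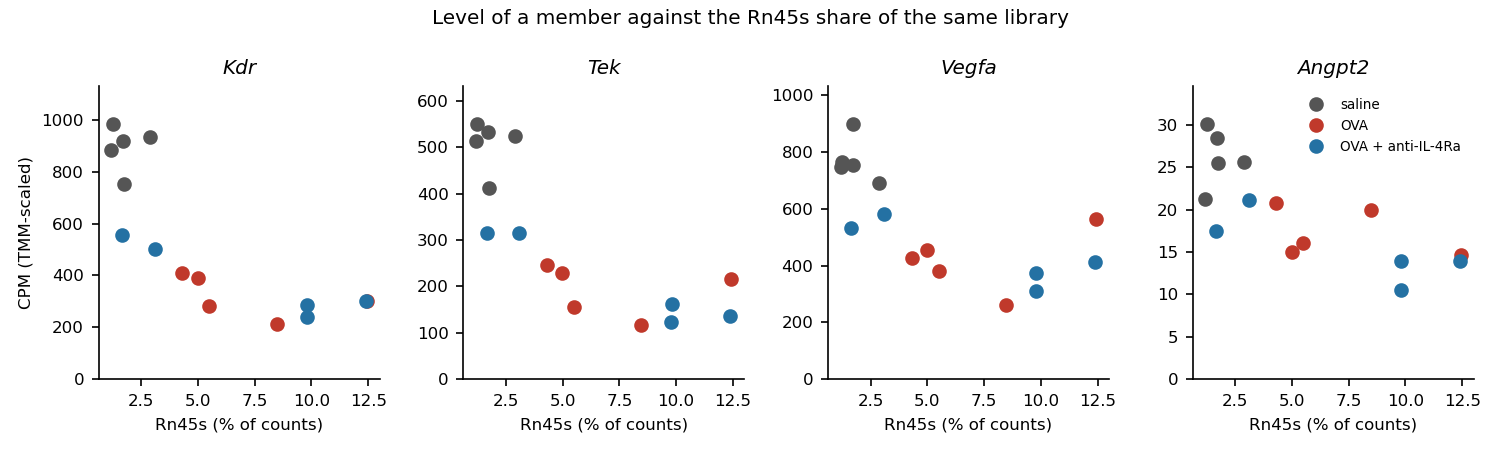
Level of Kdr, Tek, Vegfa and Angpt2 in CPM (vertical axis, linear, from 0) against the Rn45s share of the same library in percent (horizontal axis), 1 point per library. The 5 saline libraries lie at shares of 1.19 to 2.88% and above the other groups in the Kdr, Tek and Vegfa panels, and the 2 anti-IL-4Ra libraries with the lowest shares, 1.65 and 3.10%, have the highest Kdr and Tek of their group.

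The second comparison asked what the antibody changed among animals treated with OVA. None of the 10 genes was called between anti-IL-4Ra and OVA with edgeR, DESeq2 or limma voom, and 0 of 10 had an unadjusted p under 0.05 with any of these tools. Over all genes tested 0.302% were called in this comparison. The log2 changes ran from -0.16 for Angpt2 to 0.35 for Angpt1, and the groups overlapped for all 10, whereas 1.17% of all genes had groups that did not. The intervals bound what could have been missed: for Kdr the log2 change was 0.25, with a 95% interval of -0.24 to 0.73, and for Angpt1 it was 0.35, with an interval of -0.35 to 1.05. For Vegfa the interval was -0.33 to 0.50, for Tek -0.44 to 0.70, for Angpt2 -0.53 to 0.21 and for Tie1 -0.42 to 0.33. A return to the saline level would have needed 1.49 for Kdr and 1.40 for Tek on the same scale, and 0.59 for Angpt2, and these lie outside their intervals. The same held for 9 of the 10 genes. Vegfc was the exception, since its interval of -0.15 to 0.62 holds the 0.59 that a return would have needed. Vegfb came next, with an interval of -0.37 to 0.67 beside 0.75. The values that a return would have needed are themselves estimates, with SE from 0.17 to 0.33, which these intervals leave out. In anti-IL-4Ra against saline Vegfb and Vegfc were not called (adjusted p 0.076 and 0.15, edgeR). For both genes a return to the saline level is therefore not excluded. All of these intervals come from the main fit. With the Rn45s share as a term the Angpt1 interval was -0.31 to 0.52, beside a change of -0.44 in OVA against saline. In that fit a return of Angpt1 is therefore not excluded either. Calls against saline under other settings are given below.

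Within the anti-IL-4Ra group Kdr, Tek, Flt1 and Angpt1 split between libraries. Kdr measured 287, 503, 241, 302 and 556 CPM in replicates 1 to 5, and Tek measured 163, 315, 123, 136 and 315 CPM. Flt1 measured 102, 245, 88.0, 106 and 220 CPM, and Angpt1 measured 33.3, 65.9, 25.7, 20.0 and 77.1 CPM. In all 4 genes replicates 2 and 5 were the highest, and these are the libraries with the lowest Rn45s shares of the group. The summed level of the 12 endothelial markers was 2762 and 2437 CPM in these libraries and 1336, 1093 and 1463 CPM in replicates 1, 3 and 4. Vegfa at 374, 582, 310, 411 and 533 CPM was also highest in replicates 2 and 5, as were Flt4 and Angpt2. Tie1 did not split that way, since replicates 4 and 5 were close, at 148 and 150 CPM. Vegfc was higher in replicate 4, at 8.28 CPM, than in replicate 5, at 7.73 CPM. Vegfb was highest in replicate 4, at 21.9 CPM against 9.75 to 11.98 CPM in the others. Without the libraries of high Rn45s share, which left OVA replicates 1, 3 and 4 and anti-IL-4Ra replicates 2 and 5, 0 of 10 genes were called with edgeR, beside 0.171% of all genes, although 5 had an unadjusted p under 0.05. The log2 changes there were 0.58 for Kdr, 0.60 for Tek, 0.65 for Flt1 and 0.75 for Angpt1, the last with the lowest adjusted p of the 10 (0.065, edgeR). In this subset the OVA libraries had Rn45s shares of 4.31 to 5.50%, all above the 3.10 and 1.65% of the anti-IL-4Ra libraries. The share and the groups therefore cannot be told apart there. The part of Rn45s in the spread within the anti-IL-4Ra group was not tested.

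The third comparison, anti-IL-4Ra with OVA against saline, shares its saline libraries with the first. Here 8 of 10 genes were lower, beside 12.7% of all genes tested called lower, and 8 lay wholly below the saline libraries, beside 10.3% of all genes. The log2 changes of the called genes ran from -0.72 ± 0.18 for Tie1 (adjusted p = 0.0087, edgeR) to -1.27 ± 0.27 for Tek (adjusted p = 0.0040, edgeR). Kdr changed by -1.24 ± 0.23, Flt1 by -1.14 ± 0.28, Angpt1 by -1.12 ± 0.33, Flt4 by -0.85 ± 0.21, Vegfa by -0.80 ± 0.20 and Angpt2 by -0.76 ± 0.17. The ligands Vegfb (-0.60 ± 0.24, adjusted p = 0.076, edgeR) and Vegfc (-0.36 ± 0.18, adjusted p = 0.15, edgeR) were not called. In the anti-IL-4Ra libraries Vegfc ran from 4.73 to 8.81 CPM and Angpt2 from 10.6 to 21.2 CPM. Without anti-IL-4Ra replicate 4 Vegfb was called (log2 -0.89, adjusted p = 0.0081, edgeR), and without replicate 1 or 3 of that group Angpt1 was not (adjusted p 0.057 and 0.059, edgeR).

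Other settings changed these calls. With the Rn45s share as a term 0 of 10 genes were called with edgeR, where 6 had an unadjusted p under 0.05, and 0.321% of all genes were called lower. Without the libraries of high Rn45s share, which left anti-IL-4Ra replicates 2 and 5, Kdr alone was called (log2 -0.75, adjusted p = 0.036, edgeR). This stood beside 1.24% of all genes lower. All of the 10 genes but Vegfc (0.49, edgeR) had an unadjusted p under 0.05 there. With the cardiac score as a term 5 genes were called, Vegfa, Kdr, Tek, Tie1 and Angpt2, beside 3.39% of all genes lower.

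The balance between partners was measured as the difference of log2(CPM + 0.5) within a library, for 5 pairs. Of these, 4 shifted between OVA and saline, each with the smallest p that an exact two-sided permutation test of 5 against 5 libraries can give (0.00794; adjusted p = 0.0238 over 15 tests). Angpt2 relative to Angpt1 rose by 0.95 on the log2 scale, the linear ratio going from 0.275 ± 0.0254 (SD, n = 5) with saline to 0.575 ± 0.296 with OVA. In OVA replicate 2 that ratio reached 1.09. Vegfa relative to Kdr rose by 0.60, from 0.869 ± 0.116 to 1.34 ± 0.325. Every OVA library had a higher CPM of Vegfa than of Kdr, as did saline replicate 4 by a small margin. CPM is not scaled by gene length, and per kilobase Vegfa stood above Kdr with saline as well (180 against 99.1). Vegfc relative to Flt4 rose by 0.38, and Tek relative to Tie1 fell by 0.73, from 2.15 ± 0.165 to 1.30 ± 0.178. Flt1 relative to Kdr differed by 0.16, which did not pass the correction (adjusted p = 0.0744, exact permutation test). With saline replicate 1, 2, 4 or 5 left out, 0 of the 5 pairs were called. The lowest adjusted p there was 0.0595 (exact permutation test), whereas without saline replicate 3 all 4 were called. With 1 OVA library left out, 3 to 5 of the 5 pairs were called. The Rn45s shares of the saline and OVA libraries did not overlap. OVA replicates 2 and 5, at shares of 8.47 and 12.4%, had the highest Angpt2 to Angpt1 ratios of their group, 1.09 and 0.571. They also had its lowest Tek to Tie1 ratios, 1.12 and 1.13, and its highest Vegfc to Flt4 ratios. Vegfa relative to Kdr did not split that way. The part of Rn45s in the ratios was not tested.

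**Figure D4:**
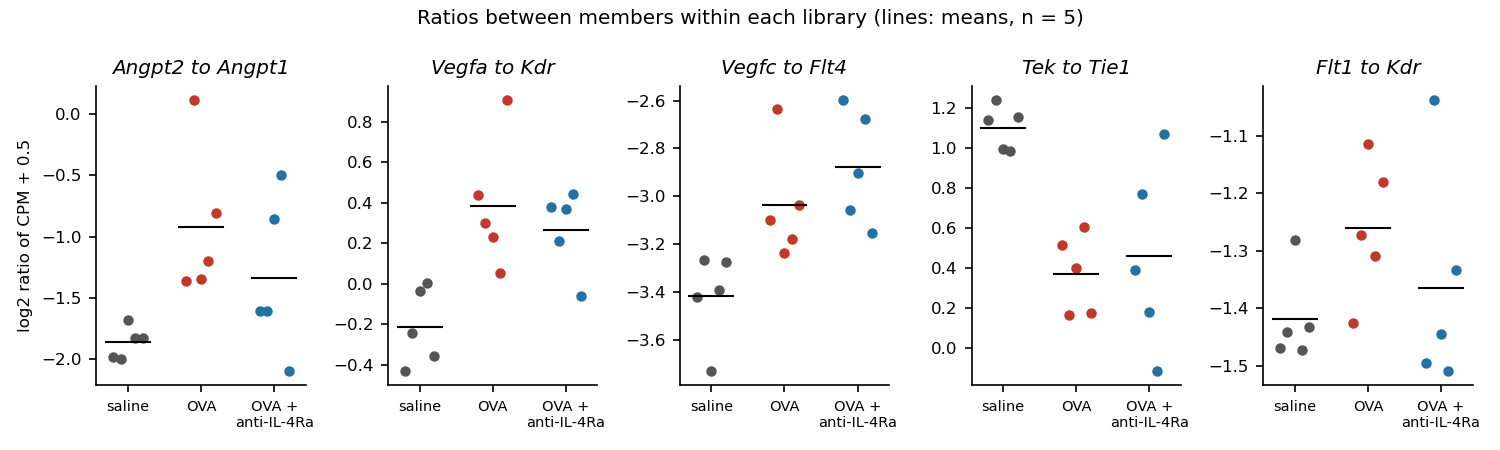
Log2 ratio of CPM + 0.5 between 2 genes within each library (vertical axis, not from 0), by group, with replicates 1 to 5 from left to right and lines at the group means. The saline and OVA points do not overlap for Angpt2 to Angpt1, Vegfa to Kdr, Vegfc to Flt4 and Tek to Tie1, and the anti-IL-4Ra points span a wide range.

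Between anti-IL-4Ra and OVA 0 of the 5 ratios were called, with adjusted p from 0.427 to 0.722 (exact permutation test). Against saline, anti-IL-4Ra libraries differed in 1 ratio, Vegfc relative to Flt4, higher by 0.54 on the log2 scale (adjusted p = 0.0238, exact permutation test). Vegfa relative to Kdr, at 0.48, and Tek relative to Tie1, at -0.64, each had an adjusted p of 0.0510 (exact permutation test). Angpt2 relative to Angpt1 was 0.430 ± 0.195 on the linear scale with anti-IL-4Ra, with libraries from 0.233 to 0.708 that reached into the saline range of 0.250 to 0.311. Leaving out 1 library at a time gave 0 to 4 called ratios in this comparison.

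The falls of the receptors were next set beside the endothelium as a whole. The 12 endothelial markers all fell in OVA lungs (median log2 -1.22), among them Eng at -1.86, Cdh5 at -1.59 and Clec14a at -1.48, and their summed level ran from 3450 to 4619 CPM with saline and from 1220 to 2174 CPM with OVA. The library sizes were then rescaled so that the mean log2 level of these markers was equal in every library, and the fit over all genes was repeated. On that scale Kdr (-0.29 ± 0.18), Tek (-0.20 ± 0.19), Flt1 (-0.13 ± 0.18) and Angpt1 (-0.27 ± 0.25) were not called between OVA and saline. Angpt2 (0.68 ± 0.25, adjusted p = 0.017, edgeR), Vegfc (0.63 ± 0.25, adjusted p = 0.026, edgeR) and Tie1 (0.55 ± 0.21, adjusted p = 0.020, edgeR) were higher. That is 3 of 10, whereas 85.9% of all genes were called higher on the endothelial scale. In anti-IL-4Ra against saline Vegfc and Tie1 were called higher, 2 of 10 beside 88.7% of all genes, and between anti-IL-4Ra and OVA 0 were called with edgeR, at an unadjusted p under 0.05 as well, beside 0.138% of all genes.

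These calls depended on how the markers were summarised. With the median marker of each library in place of the mean, 1 gene was called in OVA against saline and it was lower (Kdr, -0.53, adjusted p = 0.017, edgeR), beside 0.962% of all genes lower. In anti-IL-4Ra against saline 2 were called lower, beside 0.792% of all genes. With the median after each marker's own mean was subtracted, a setting chosen after seeing the data, 3 were called higher in each of these comparisons, beside 85.9% of all genes in the first and 89.8% in the second. Without OVA replicate 2, 1 gene was called in OVA against saline.

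Other cell types of the vessel and alveolus were followed by their markers. The counts of this and the next lists are to be read beside all genes tested, of which 19.3% were called higher and 17.8% lower in OVA against saline. In OVA against saline all 6 aerocyte markers (Rprml -1.83, Ednrb -1.23) and all 6 general capillary markers (Sema3c -1.49, Aplnr -1.11) fell. Of the large vessel markers 4 of 7 fell (Bmx -1.57), and of the lymphatic endothelial markers 1 of 6 did (Mmrn1 -1.14, median of the list 0.11). Pericytes, which make Angpt1, had 6 of 8 markers lower (Ndufa4l2 -1.55, Pdgfrb -1.14). Of the markers of alveolar type 1 cells 8 of 9 fell (Igfbp2 -1.58, Aqp5 -1.56), the summed level going from 4453 to 6096 CPM with saline to 1345 to 3068 CPM with OVA. Alveolar type 2 markers fell in 7 of 8 (Sftpb -1.62), red blood cell markers in 6 of 7, and platelet markers in 3 of 7 tested (Ppbp -1.50). Leukocyte markers rose in 7 of 8 (Cd52 1.56, median 0.97) and macrophage markers in 4 of 8 (Ctsk 2.39, Itgax 2.05), with none lower in either list. Fibroblast markers were split, 3 higher (Col3a1 1.03) and 3 lower (Tcf21 -1.66) of 8. Of 6 smooth muscle and 7 adipose markers 0 were called with edgeR, where 1 and 0 had an unadjusted p under 0.05, and of 10 cardiac markers 1 fell (Myh7 -1.36). Vegfa and Angpt1 moved in the same direction as the markers of alveolar type 1 cells and pericytes. The part of cell composition in any of these falls was not tested.

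Most of these marker calls were lost with the Rn45s share as a term, where 3.06% of all genes were called higher and 1.67% lower. In that fit 0 of 8 leukocyte markers, 0 of 9 alveolar type 1 markers, 0 of 8 fibroblast markers, 0 of 7 red blood cell markers and 0 of 7 platelet markers were called with edgeR, where 5, 4, 1, 0 and 3 had an unadjusted p under 0.05. Nor was any called of 12 endothelial, 6 general capillary, 7 large vessel, 6 lymphatic endothelial and 7 adipose markers (edgeR), where 4, 1, 2, 0 and 6 had an unadjusted p under 0.05. The endothelial median there was a log2 change of -0.50. Calls that were made were 2 of 8 pericyte markers, 1 of 6 aerocyte markers, 1 of 8 alveolar type 2 markers and 1 of 10 cardiac markers lower, and 3 of 8 macrophage and 2 of 6 smooth muscle markers higher.

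Further genes of the VEGF pathway were followed in lists. Of the other ligands and co-receptors, Pgf, which binds Flt1, rose in OVA lungs (log2 0.68 ± 0.22, adjusted p = 0.023, edgeR), from 3.14 ± 0.815 to 5.07 ± 1.23 CPM (SD, n = 5). Figf, the older symbol of Vegfd, fell by 1.23 and the co-receptor Nrp1 fell by 1.02, while Nrp2 stood at 0.15 (adjusted p = 0.31, edgeR). Pgf was thus the 1 VEGF family gene of the table that was higher in OVA lungs. Of 17 VEGF receptor signalling genes 9 fell and 1 rose (median -0.38). Hspb1, a small heat shock protein downstream of Kdr, stood at -1.35, caveolin Cav1 at -1.29 and paxillin Pxn at -0.58. The riser was Sh2d2a (1.57), an adaptor of Kdr that T cells also express.

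Of 9 transcripts known to respond to VEGF in endothelial cells 7 fell and 1 rose (median -1.11). Esm1, a marker of the endothelial tip cell, fell most, from 15.2 ± 5.24 CPM (SD, n = 5) to 2.37 ± 0.908 CPM (log2 -2.66 ± 0.32, adjusted p = 5.1e-05, edgeR). With anti-IL-4Ra Esm1 stood at 5.96 ± 2.22 CPM, a log2 change of 1.32 ± 0.32 against OVA that did not pass the threshold (adjusted p = 0.14, edgeR). Apln fell by 1.82 and Myct1 by 1.70, and Egr3, an immediate early gene that T cells also express, rose by 1.74. Of 9 tested regulators of the Tie receptors 3 fell and 1 rose. Ptprb, the phosphatase that removes phosphate from Tek, stood at -1.33, Grb14 at -0.88 and Grb7 at -0.52, whereas Dok2, an adaptor of Tek that is also abundant in blood cells, rose by 1.90. Angpt4 was too low to be tested, at 0.552 ± 0.354 CPM with saline. On the endothelial scale 2 of the 9 VEGF-responsive transcripts were called higher and 2 lower in OVA against saline (median log2 0.10). On that scale 85.9% of all genes were called higher, and 77 of the 15905 genes tested were called lower.

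Vegfa is a classic target of the hypoxia-inducible factors (HIF), so oxygen sensing genes were listed as well. Of 9 such genes 2 rose and 3 fell, beside the 19.3% and 17.8% of all genes called in those directions. Epas1, the HIF subunit of endothelium, fell by 1.28, Egln1 by 0.40 and Arnt by 0.25, while the prolyl hydroxylase Egln3 rose by 1.88 and Vhl by 0.49. Of 14 hypoxia-responsive genes 3 rose (Pgk1 0.73, Ankrd37 0.71, Ldha 0.43) and 4 fell, with Adm, a vessel peptide, at -1.30, P4ha1 at -0.60 and Bnip3 at -0.58. The list as a whole had a median of -0.22 and moved in both directions, while Vegfa fell. Of 8 vessel growth inhibitors Thbs1 rose (0.85) and Sema3a (-1.29) and Sema3f (-0.86) fell. Of 8 genes of lymphatic vessel growth 4 fell, led by Sox18 at -1.03, Gata2 at -0.95 and Nr2f2 at -0.86. Of 16 Notch, ephrin, apelin, PDGF and BMP9 genes 13 fell (median -1.05), led by Eng, Apln and Bmpr2 (-1.33). Of 6 tested adhesion molecules for leukocytes Selp rose (0.69) and Icam2 (-1.33) and Icam1 (-0.68) fell. Some genes sit in more than 1 list, among them Apln, Dll4, Eng, Icam2 and Cav1. On the endothelial scale 3 of the 16 Notch, ephrin, apelin, PDGF and BMP9 genes were called higher and 2 lower (median log2 0.15). This stood beside 85.9% of all genes called higher on that scale, and 77 of the 15905 genes tested called lower.

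With the Rn45s share as a term most of these calls were lost as well. In that fit 0 of the 4 other VEGF ligands and co-receptors, 0 of 17 VEGF receptor signalling genes, 0 of 9 Tie regulators, 0 of 9 oxygen sensing genes, 0 of 8 genes of lymphatic vessel growth and 0 of 6 adhesion molecules were called with edgeR. At an unadjusted p under 0.05 there were 0, 7, 3, 6, 1 and 2 genes in these lists. Of the VEGF-responsive transcripts 3 of 9 were called lower, of the hypoxia-responsive genes 1 of 14, and of the Notch, ephrin, apelin, PDGF and BMP9 genes 2 of 16. Of the inhibitors 1 of 8 was called higher. These counts stand beside 1.67% of all genes called lower and 3.06% called higher in that fit.

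**Figure D5:**
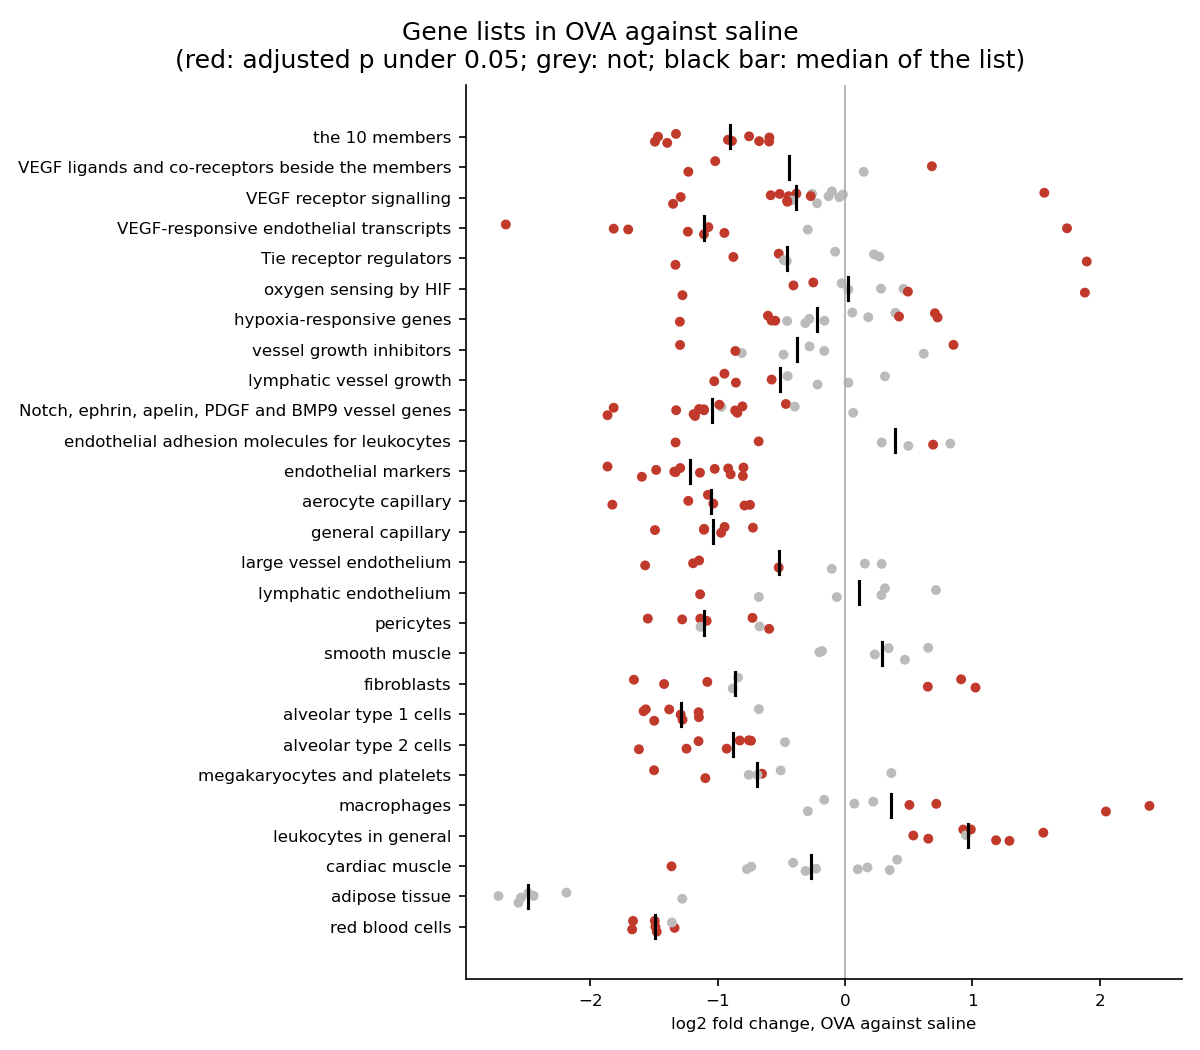
Log2 fold change in OVA against saline (horizontal axis) of the 10 genes and of every tested gene of the lists, 1 row per list, with red points for an adjusted p under 0.05 and a black bar at the median. The rows of the 10 genes, the endothelial, capillary and alveolar markers lie left of 0, and the leukocyte row lies to the right.

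In anti-IL-4Ra against OVA 0 genes of any of these lists were called with edgeR, where 8 of 10 cardiac markers, 4 of 8 macrophage markers and 0 of 12 endothelial markers had an unadjusted p under 0.05. In anti-IL-4Ra against saline 12 of 12 endothelial markers, 8 of 9 alveolar type 1 markers and 7 of 9 VEGF-responsive transcripts were lower, and 6 of 8 leukocyte markers were higher, beside 12.7% of all genes lower and 13.9% higher. With the Rn45s share as a term 0 genes of these 4 lists were called in that comparison with edgeR, where 8, 2, 4 and 5 had an unadjusted p under 0.05.

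The genes closest in pattern to each of the 10 were found by Pearson's r of log2 CPM over the 15 libraries, which share their depth and composition. These are descriptions, and part of each r comes from the group means. Kdr lay closest to Cyth3 (r 0.996), Ehd4 and Apln (0.995), Tek to Ptprb (0.997), and Flt1 to Ace (0.995) and Cdh5 (0.992). Flt4 lay closest to Dll4 (0.992), Tie1 to Adcy4 (0.986), Angpt1 to Mtmr10 (0.995) and Vegfa to Fgd5 (0.990). After the group means were subtracted these 7 leading pairs kept r from 0.963 to 0.992. Angpt2 had no such close partner, its first being Olfr1342 at 0.925, or 0.776 after the means were subtracted. Among the 10 genes themselves, with group means subtracted, Kdr and Flt1 had r 0.97, Kdr and Tek 0.97 and Flt1 and Tek 0.97. Angpt2 reached 0.53 at most, with Flt1. Vegfb stood apart, with r from -0.25 for Angpt1 to 0.20 for Vegfc, and its closest gene was Srebf1, a regulator of lipid synthesis (0.944).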

How the data were processed

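RNA was sequenced from 15 lungs, 1 library each. The authors deposited expected counts per gene symbol without normalization, and the submitters' processing notes name RSEM 1.2.15 and Bowtie2 2.1.0. RSEM divides reads that fit several genes by an estimate. The notes name the build hg38, while 22542 of the 24054 symbols are current mouse symbols, so the values were taken as mouse genes and no coordinates were assigned to them. The labels' protocols name both ribosomal RNA depletion and oligo-dT purification. Replicates are labelled as biological.

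Counts were rounded, filtered with filterByExpr (15905 genes kept), scaled by TMM and fitted for all 15 libraries together in edgeR 4.0.16 (R 4.3.3) with the quasi-likelihood test. Tests were two-sided, p was adjusted over all genes tested and genes were called under 0.05. Standard errors came from the F statistic and intervals cover 95%. DESeq2 1.42.0 and limma 3.58.1 (voom) were alternatives, with other scaling, no filter, covariates, a replicate block and left-out libraries. The fit was tested on simulated counts. Exon lengths were the union of GENCODE M21 exons. Any pair of libraries of a group differed by more than sampling noise (chi-square per degree of freedom 9.58 to 209), so each counted as 1 replicate.

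The 10 genes and all lists were chosen with earlier results of these data known. Named were all 10 genes and, of each list, at most the 3 largest rises and 3 largest falls past the threshold in OVA against saline, or fewer where several lists of cell markers are given together. Nrp2, which did not pass, and Angpt4, which was not tested, are named outside that rule and were chosen after their values were seen.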

Additional observations from a re-analysis of the deposited data

Results flagged for a closer look

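In all 3 values stood apart from the other 4 libraries of their group by a Dixon test among 45 groups checked, of which chance alone flags about 1 in 20. Tek in saline replicate 4 measured 413 CPM, lowest of its group, the others lying from 513 to 550 CPM. Vegfb in anti-IL-4Ra replicate 4 measured 21.9 CPM, highest of its group, against 9.75 to 11.98 CPM. The Flt1 to Kdr log2 ratio in saline replicate 3 was -1.28, against -1.47 to -1.43.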

How the results depend on the processing

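All 10 genes were lower in OVA against saline under every setting run apart from the endothelial scaling, by 0.25 to 1.65 on the log2 scale, but not all stayed called. With the Rn45s share as a covariate 752 genes and 1 of the 10 were called in OVA against saline, and 373 and 0 in anti-IL-4Ra against saline. Without the libraries over 8% Rn45s 28 genes were called in anti-IL-4Ra against OVA, and 833 genes and 1 of the 10 in anti-IL-4Ra against saline. With the cardiac covariate 1379 genes and 5 of the 10 were called in the latter. DESeq2 called 128 genes in anti-IL-4Ra against OVA, edgeR 48. Relative to the endothelial markers, the mean marker gave 3 of the 10 called higher in OVA against saline. The median marker gave 0 higher and 1 lower, Kdr. In none of these was the cause tested. Of the 10, Vegfc had the fewest counts, 60 in its lowest library.

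The replicate numbers did not pair the libraries: same-numbered deviations correlated at -0.55 to 0.35, over 0.1 in 2 of 15 pairs. With a replicate block 4625, 26 and 2891 genes and 10, 0 and 8 of the 10 were called in OVA against saline, anti-IL-4Ra against OVA and anti-IL-4Ra against saline, and relative to the endothelial markers 0 and 1 against saline.

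Leaving out 1 library at a time gave 9 to 10, 0 to 0 and 7 to 9 of the 10 in those comparisons, and 4776 to 6396, 32 to 61 and 2844 to 4679 genes. Relative to the endothelial markers it gave 1 to 3 in OVA against saline and 1 to 4 in anti-IL-4Ra against saline, and 0 to 5 and 0 to 4 ratios.

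Uncalled values between anti-IL-4Ra and OVA changed sign: Flt4 to -0.012 and Tek to -0.051 with the Rn45s covariate, Vegfa to -0.050 with the cardiac covariate, and Vegfb to -0.22, Angpt2 to 0.19 and Tie1 to 0.20 without the libraries over 8% Rn45s. With 1 library left out they ran from -0.046 to 0.22 for Vegfa, -0.10 to 0.29 for Vegfb, -0.040 to 0.35 for Flt1, -0.058 to 0.20 for Flt4, -0.063 to 0.27 for Tek and -0.15 to 0.064 for Tie1. The log2 ratios ran from -0.20 to 0.013 for Vegfa to Kdr and -0.066 to 0.23 for Tek to Tie1, and in anti-IL-4Ra against saline from -0.027 to 0.091 for Flt1 to Kdr.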
